A study of Homo sapiens with 6 samples.

Results

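The genes described here encode the proteins of the mitochondrial ribosome. They were chosen by name: every gene in the platform annotation whose symbol starts with MRPL or MRPS followed by a digit. The rule found 80 symbols among 21357 in the annotation, of which 77 are protein genes and 3 are not (the pseudogenes MRPL45P2 and MRPS31P5 and the antisense RNA MRPL20-AS1). Of the protein genes, 75 had a probe set that names them alone, 48 with a large subunit symbol and 27 with a small subunit symbol, and all 75 passed the filter on low signals that 13398 of 19775 genes passed. MRPS24 and MRPL53 were read only on probe sets shared with a neighbouring gene. A symbol does not always give the place of the protein: MRPS18A and MRPS30 sit in the large subunit of the human ribosome, and the gene once called MRPS36 is listed as KGD4, a protein of the oxoglutarate dehydrogenase complex, so the rule did not take it.

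IMR90 human diploid lung fibroblasts carrying an inducible ER:Ras fusion (H-ras V12) were profiled in 3 states, with 2 biological replicates each, on Affymetrix U133 Plus 2.0 arrays. RB-KD OIS cells received 100 nM 4-hydroxytamoxifen (4-OHT) for 6 days, which drives oncogene-induced senescence (OIS), and a mixture of siRNAs against RB1 at 4 days before the RNA was taken. Ctrl-KD OIS cells received the same 4-OHT and a control siRNA. Both are called senescent here by their treatment, although the paper reports that DNA replication partly recovered after RB knockdown. Growing cells carried the same ER:Ras and received neither 4-OHT nor siRNA, so that Ras induction and transfection cannot be told apart in comparisons with them. The study asked how RB contributes to the raised oxidative phosphorylation (OXPHOS) of senescent cells.

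RB1 itself had signals of 222 and 228.5 in RB-KD OIS cells, 2578 and 1914.5 in Ctrl-KD OIS cells and 2627 and 2528 in growing cells, which set the knockdown arrays apart. Array medians lay between 46 and 51.8 and trimmed means between 496.15 and 496.465, and log2 signals correlated at 0.971 to 0.974 within a state and at 0.893 to 0.953 between states. All 8 fibroblast markers were above the array median on every array, whereas 9 markers of epithelial, endothelial and blood cells had signals of 1.2 to 164.9. Of these, KRT8 and PECAM1 were above the median on all 6 arrays, EPCAM on 5, VWF on 3 and PTPRC on 1, and CDH1, KRT5, CDH5 and CD14 on none. Signals are linear MAS5 values scaled to a common level on each array, so that a change in the RNA content of a cell and a change in the mixture of cells cannot be told apart. The summed signal of the fibroblast markers was 170094 to 201774.5 in RB-KD OIS cells, 155721.5 to 157766.5 in Ctrl-KD OIS cells and 215044 to 218290 in growing cells. The licensing factor MCM3 had signals of 3302.5 and 3709 in RB-KD OIS cells, 342 and 424 in Ctrl-KD OIS cells and 1657.5 and 1359.9 in growing cells. The proliferation marker MKI67 had signals of 182 and 174 in RB-KD OIS cells, 134 and 142 in Ctrl-KD OIS cells and 807 and 772 in growing cells. The part of cell cycle entry in the results for the ribosomal genes was not tested.

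Mitochondria keep a ribosome of their own, with a large subunit that joins amino acids and a small subunit that reads the messenger RNA. Its proteins are all encoded in the nucleus, made in the cytosol and imported, while its ribosomal RNAs come from mitochondrial DNA. In human cells it makes only the OXPHOS subunits that mitochondrial DNA encodes, so that its genes are often followed beside those of the respiratory chain. Members with numbers up to 36 in the large subunit and up to 21 in the small subunit mostly carry the names of bacterial ribosomal proteins, and higher numbers mostly mark proteins that were added in mitochondria.

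More of these genes were higher than lower in Ctrl-KD OIS cells relative to growth. Relative to growing cells, the median member of the large subunit lay at 0.094 and 0.21 on the RB-KD OIS arrays and at 0.24 and 0.33 on the Ctrl-KD OIS arrays, in log2 units. The median member of the small subunit lay at 0.11 and 0.21 on the RB-KD OIS arrays and at 0.25 and 0.35 on the Ctrl-KD OIS arrays. The 4 senescent arrays thus stood above the growing arrays in both subunits, and the RB-KD OIS arrays stood below the Ctrl-KD OIS arrays. Over all 13398 tested genes the array medians lay between -0.022 and 0.026. Signals of single members ran from 191.9 to 15607.

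**Figure D1:**
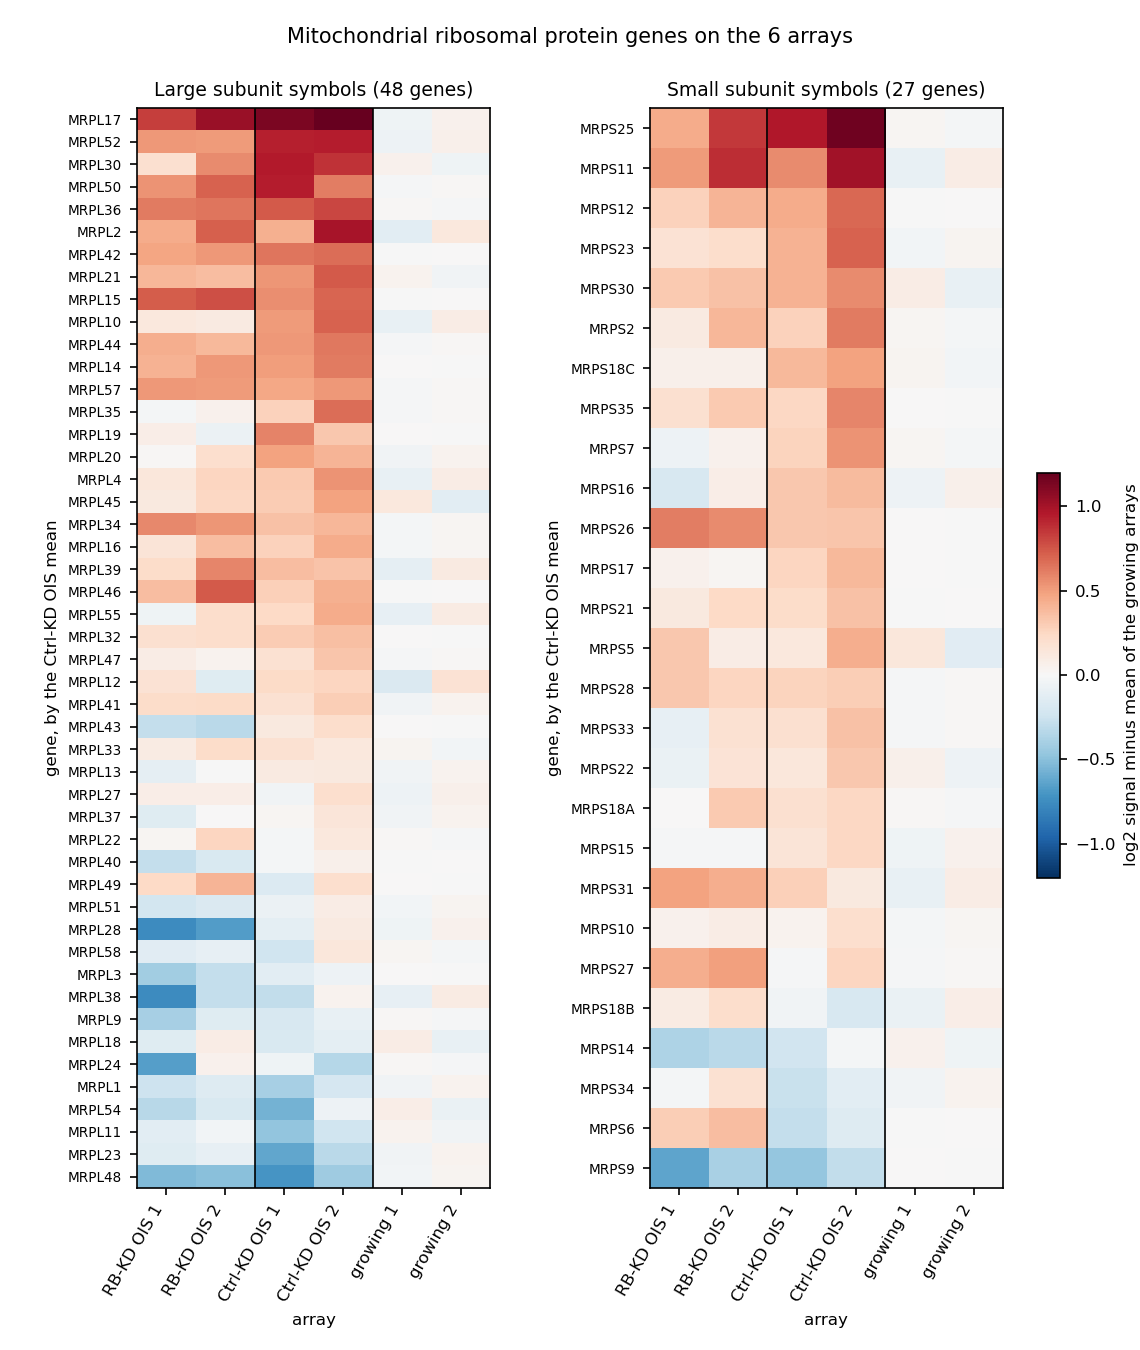
Each row is a mitochondrial ribosomal protein gene and each column an array, with RB-KD OIS left, Ctrl-KD OIS in the middle and growing cells right. Colour gives the log2 signal minus the mean of both growing arrays. Most rows are red on the Ctrl-KD OIS arrays, fewer are red on the RB-KD OIS arrays, and a small group at the foot of each panel is blue.

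The first comparison asks which members differed between Ras-induced senescence and growth. In Ctrl-KD OIS cells 37 of 75 members (49.3%) were higher and 5 (6.67%) were lower than in growing cells at an adjusted p under 0.05 (limma, Benjamini-Hochberg over all genes). Of all genes tested, 20.5% were higher and 21.2% were lower. The large subunit had 23 of 48 members higher and 4 lower, with a median log2 fold change of 0.29. The small subunit had 14 of 27 higher and 1 lower, with a median of 0.28, against a median of -0.0094 over all genes. Changes were small: 12 called members differed by at least 1.5-fold and 2 by at least 2-fold. For these fold counts, here and in the other comparisons, the share over all genes is not given.

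MRPL17, whose bacterial counterpart lies near the mouth of the exit tunnel, had the largest rise. Its signals were 6108.5 and 7029 in RB-KD OIS cells, 7486 and 8072 in Ctrl-KD OIS cells and 3306 and 3554 in growing cells. All Ctrl-KD OIS values were more than those of growing cells, with RB-KD OIS values between them (log2 fold change ± standard error for Ctrl-KD OIS relative to growth 1.18 ± 0.096, adjusted p = 1.35e-05). MRPS25, a protein particular to the mitochondrial small subunit, had signals of 1104 and 1462 in RB-KD OIS cells, 1579.9 and 1832 in Ctrl-KD OIS cells and 827 and 800.0 in growing cells. It was likewise highest in Ctrl-KD OIS cells with no overlap with growing cells (1.06 ± 0.15, adjusted p = 0.000357). MRPL36, a small protein whose bacterial counterpart binds zinc, had signals of 13776 and 13993 in RB-KD OIS cells, 14931 and 15607 in Ctrl-KD OIS cells and 9079 and 8857 in growing cells. The 3 states did not overlap for this gene either (0.77 ± 0.074, adjusted p = 3.78e-05). MRPL52 and MRPL50, both found in mitochondrial ribosomes and not in bacterial ones, differed by 0.93 ± 0.081 and 0.78 ± 0.12 from growing cells in log2 units. MRPL30, a counterpart of bacterial L30, differed by 0.91 ± 0.13, adjusted p = 0.000393.

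In the small subunit MRPS11, a protein of the platform, had signals of 3246 and 4402 in Ctrl-KD OIS cells and 2055 and 2339.5 in growing cells, a log2 fold change of 0.79 ± 0.16, adjusted p = 0.00422. MRPS12, which lies at the decoding centre and is the counterpart of the bacterial protein where streptomycin resistance arises, had signals of 6105 and 7234 in Ctrl-KD OIS cells and 4452 and 4510.3 in growing cells. Its values did not overlap between these states (0.57 ± 0.10, adjusted p = 0.00159). MRPS23 differed by 0.56 ± 0.11, adjusted p = 0.00222, and MRPS30, a large subunit protein despite its name, by 0.49 ± 0.11, adjusted p = 0.00483.

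The 5 members that were lower formed a small group. MRPL48 had signals of 1064 and 1291 in Ctrl-KD OIS cells and 1694 and 1774 in growing cells, a log2 fold change of -0.57 ± 0.12, adjusted p = 0.00402. MRPL23, at the exit tunnel, had signals of 1996.5 and 2459 in Ctrl-KD OIS cells and 2991 and 3154 in growing cells (-0.47 ± 0.11, adjusted p = 0.00782). MRPL11, which forms the base of the stalk, and MRPL1, which forms the other, mobile stalk, differed by -0.36 ± 0.11, adjusted p = 0.032 and by -0.30 ± 0.10, adjusted p = 0.0413. MRPS9, a protein of the head whose bacterial counterpart reaches to the peptidyl transfer RNA, had signals of 1072 and 1200.2 in Ctrl-KD OIS cells and 1479 and 1471 in growing cells (-0.38 ± 0.12, adjusted p = 0.0317). Each of the 5 had both Ctrl-KD OIS values below both growing values. This separation adds no support to the calls, which were made from the same values.

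With a filter at percentile 70, 39 members (52%) were higher, against 27.4% of all genes. The count of higher members depended on single arrays and on the variance model. It was 20 (26.7%) without either one of the growing arrays, where 15.7% and 15.4% of all genes were higher without growing replicates 1 and 2. It was 22 (29.3%, against 17.5% of all genes) without Ctrl-KD OIS replicate 2, 35 (46.7%, against 18.3%) without Ctrl-KD OIS replicate 1 and 21 (28%, against 16%) with no trend in the prior variance. The count of lower members also moved when 1 array was left out. MRPL17, MRPL52, MRPL30, MRPL50, MRPL36, MRPL10, MRPL15, MRPL48 and MRPS12 held their calls under all 16 alternatives, and 10 of these ended the call of MRPL1 and 6 those of MRPL11 and of MRPS9.

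**Figure D2:**
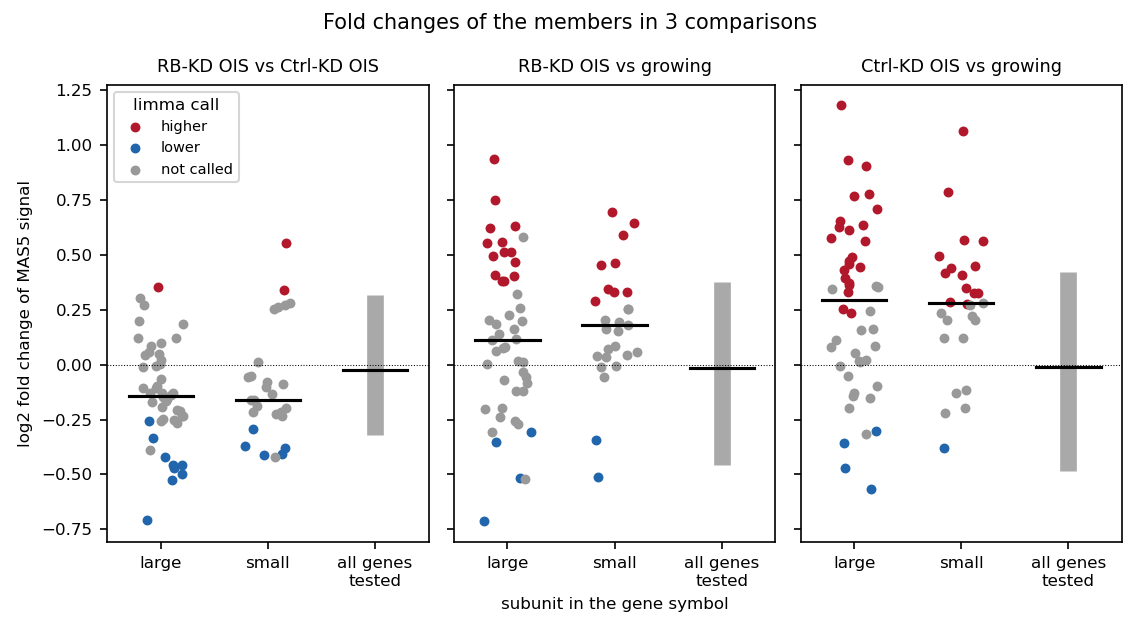
Each point is 1 member, with its log2 fold change on the vertical axis, for RB-KD OIS against Ctrl-KD OIS, RB-KD OIS against growing and Ctrl-KD OIS against growing cells. Red and blue mark calls by limma, black lines the medians, and the grey bar the middle 50% of all tested genes. The members lie mostly above 0 against growing cells and mostly below 0 in the left panel, with medians of -0.14 (large) and -0.16 (small) there.

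The second comparison set RB-depleted Ras cells against growing cells and shares its growing arrays with the first. In RB-KD OIS cells 23 of 75 members (30.7%) were higher and 6 (8%) were lower, where 18.5% of all genes tested were higher and 19% lower. The large subunit had 14 higher and 4 lower of 48 with a median of 0.11, and the small subunit 9 higher and 2 lower of 27 with a median of 0.18. The median over all genes was -0.015. Here 8 called members differed by at least 1.5-fold and none by 2-fold or more.

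MRPL17 had the largest rise here too, at 0.93 ± 0.096, adjusted p = 7.85e-05. MRPL15, a counterpart of bacterial L15 that helps build the large subunit in bacteria, had the next largest among large subunit members (0.75 ± 0.081, adjusted p = 0.000105). MRPL15 had signals of 10868 and 11246 in RB-KD OIS cells, 9692 and 10684 in Ctrl-KD OIS cells and 6549.8 and 6607 in growing cells, so that RB-KD OIS values were the highest and growing values the lowest, with no overlap. The difference between the senescent states did not pass the test (0.12 ± 0.081, adjusted p = 0.331). MRPL36, MRPL50 and MRPL34 followed with 0.63 ± 0.074, 0.62 ± 0.12 and 0.56 ± 0.085. In the small subunit MRPS11 (0.70 ± 0.16, adjusted p = 0.00904), MRPS25 (0.64 ± 0.15, adjusted p = 0.00739) and MRPS26 (0.59 ± 0.097, adjusted p = 0.00128) rose most. MRPS26 had signals of 1626 and 1577 in RB-KD OIS cells, 1331 and 1338 in Ctrl-KD OIS cells and 1065.5 and 1063 in growing cells, with no overlap between any pair of states and the highest values in RB-KD OIS cells. MRPS27, an RNA-binding protein of the pentatricopeptide repeat family, and MRPS31, a protein of the head, rose by 0.46 ± 0.11 and 0.46 ± 0.11.

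Among the members that were lower in RB-KD OIS relative to growth, MRPL28 had the largest change. MRPL28 had signals of 1005 and 1068 in RB-KD OIS cells, 1562 and 1826 in Ctrl-KD OIS cells and 1632 and 1763.5 in growing cells. Its RB-KD OIS values lay below all 4 others, and Ctrl-KD OIS and growing values overlapped (-0.71 ± 0.11, adjusted p = 0.00106 against growing cells). MRPL48 differed by -0.52 ± 0.12, adjusted p = 0.00734. MRPL43 and MRPL3 differed by -0.31 ± 0.09 and -0.35 ± 0.081, MRPL3 being a protein that in bacteria reaches towards the site of peptide bond formation. In the small subunit MRPS9 differed by -0.51 ± 0.12, adjusted p = 0.00889 and MRPS14, a protein of the head, by -0.35 ± 0.10, adjusted p = 0.0237.

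The count of higher members in this comparison was 11 (14.7%) without growing replicate 1 and also 11 with no trend in the prior variance, where 13.8% and 14.3% of all genes were higher, so that the members' share was near that of all genes. It was 16 (21.3%, against 13.9% of all genes) without growing replicate 2, 19 (25.3%, against 14.9%) without RB-KD OIS replicate 1 and 13 (17.3%, against 14.2%) without RB-KD OIS replicate 2. Leaving out 1 array also moved the count of lower members. With each array centred on its median, 32 members were higher and 3 lower, beside 3097 higher and 1984 lower of all genes tested. With a filter at percentile 70, 24 members (32%) were higher, against 25% of all genes. MRPL17, MRPL15, MRPL36, MRPL50, MRPL34, MRPL52 and MRPL28 held their calls under all 16 alternatives, and 8 of these ended the call of MRPL43 and 7 that of MRPS14.

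The third comparison is between 2 states that both had Ras induction and a transfection and that differed in the siRNA given. In RB-KD OIS cells 14 of 75 members (18.7%) were lower and 3 (4%) were higher than in Ctrl-KD OIS cells, where 11.6% of all genes tested were lower and 12.6% higher. The large subunit had 9 lower and 1 higher of 48 with a median of -0.14. The small subunit had 5 lower and 2 higher of 27 with a median of -0.16, against -0.023 over all genes. In all, 54 members had a log2 fold change below 0 and 21 above 0. Of all genes tested, 6961 lay below 0 and 6437 above. Of the called members, 1 reached 1.5-fold.

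That member was MRPL28 (-0.71 ± 0.11, adjusted p = 0.00229), whose signals were given above and were 1.63-fold lower in RB-KD OIS cells. The stalk protein MRPL10, which anchors copies of MRPL12, had signals of 1595 and 1581 in RB-KD OIS cells, 2090.4 and 2398 in Ctrl-KD OIS cells and 1381 and 1553 in growing cells. Ctrl-KD OIS values were apart from both other states, and RB-KD OIS values lay just above those of growing cells (-0.50 ± 0.11, adjusted p = 0.0108). MRPL30 differed by -0.53 ± 0.13, adjusted p = 0.0162, MRPL43 by -0.47 ± 0.09, adjusted p = 0.00552 and MRPL52 by -0.42 ± 0.081, adjusted p = 0.00593. MRPL43 had signals of 1758 and 1714 in RB-KD OIS cells, 2331 and 2483 in Ctrl-KD OIS cells and 2152 and 2141 in growing cells, lowest in RB-KD OIS cells with no overlap between states. MRPL19 had signals of 2293 and 2069 in RB-KD OIS cells, 3294 and 2718 in Ctrl-KD OIS cells and 2175 and 2173 in growing cells, and only its Ctrl-KD OIS values stood apart (-0.46 ± 0.11, adjusted p = 0.0176). MRPL35 (-0.46 ± 0.13), MRPL20 (-0.33 ± 0.09) and MRPL3 (-0.26 ± 0.081) were the other large subunit members that were lower. Dimmer probe sets of MRPL35 had -0.11 and -0.087 without a call.

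In the small subunit MRPS7, a protein of the head near the path of the transfer RNAs, had signals of 2042 and 2199 in RB-KD OIS cells, 2565 and 3098 in Ctrl-KD OIS cells and 2159.5 and 2095 in growing cells. RB-KD OIS and growing values overlapped and Ctrl-KD OIS values lay above them (-0.41 ± 0.11, adjusted p = 0.0252). MRPS18C, the member that takes the place of bacterial S18, had signals of 2881 and 2892.5 in RB-KD OIS cells, 3638.5 and 3879 in Ctrl-KD OIS cells and 2839 and 2704 in growing cells. RB-KD OIS values lay just above those of growing cells, and Ctrl-KD OIS values above both (-0.38 ± 0.086, adjusted p = 0.0121). MRPS16, MRPS23 and MRPS17 were lower by the same test, at -0.41 ± 0.11, -0.37 ± 0.11 and -0.29 ± 0.089.

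The members higher in RB-KD OIS than in Ctrl-KD OIS cells were MRPS6, MRPS27 and MRPL23. MRPS6, whose bacterial counterpart pairs with S18 on the platform, had signals of 4709 and 4941 in RB-KD OIS cells, 3132 and 3441 in Ctrl-KD OIS cells and 3812 and 3846 in growing cells. The highest values were those of RB-KD OIS cells and the lowest those of Ctrl-KD OIS cells, without overlap (0.56 ± 0.086, adjusted p = 0.00198). MRPS27 differed by 0.34 ± 0.11 with an adjusted p just under 0.05, and MRPL23 by 0.35 ± 0.11, adjusted p = 0.0479.

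With a filter at percentile 70, 15 members (20%) were lower, against 17.1% of all genes. The share of lower members was not above that of all genes under every setting. It was 4 members (5.33%, against 6.53% of all genes) without RB-KD OIS replicate 1, 2 (2.67%, against 4.78%) with no trend in the prior variance and 5 (6.67%, against 6.5%) with the mean of a gene's probe sets. It was 7 (9.33%, against 8.3%) without Ctrl-KD OIS replicate 2, 13 (17.3%, against 9.73%) without Ctrl-KD OIS replicate 1 and 10 (13.3%, against 8.85%) without RB-KD OIS replicate 2. Without either growing array it was 9 (12%), where 9.25% and 9.19% of all genes were lower. The number of higher members likewise moved when 1 array was left out. MRPL43 lost its call with the mean of its probe sets and with probe sets not ending in _s_at or _x_at taken first. MRPL28 and MRPS6 held their calls under all 16 alternatives. Of these, 11 ended the calls of MRPL3 and of MRPS17, 10 that of MRPS27, which also turned in sign under 1 other, 8 that of MRPS23 and 6 that of MRPS16, and MRPL23 lost its call in 9 of 15.

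**Figure D3:**
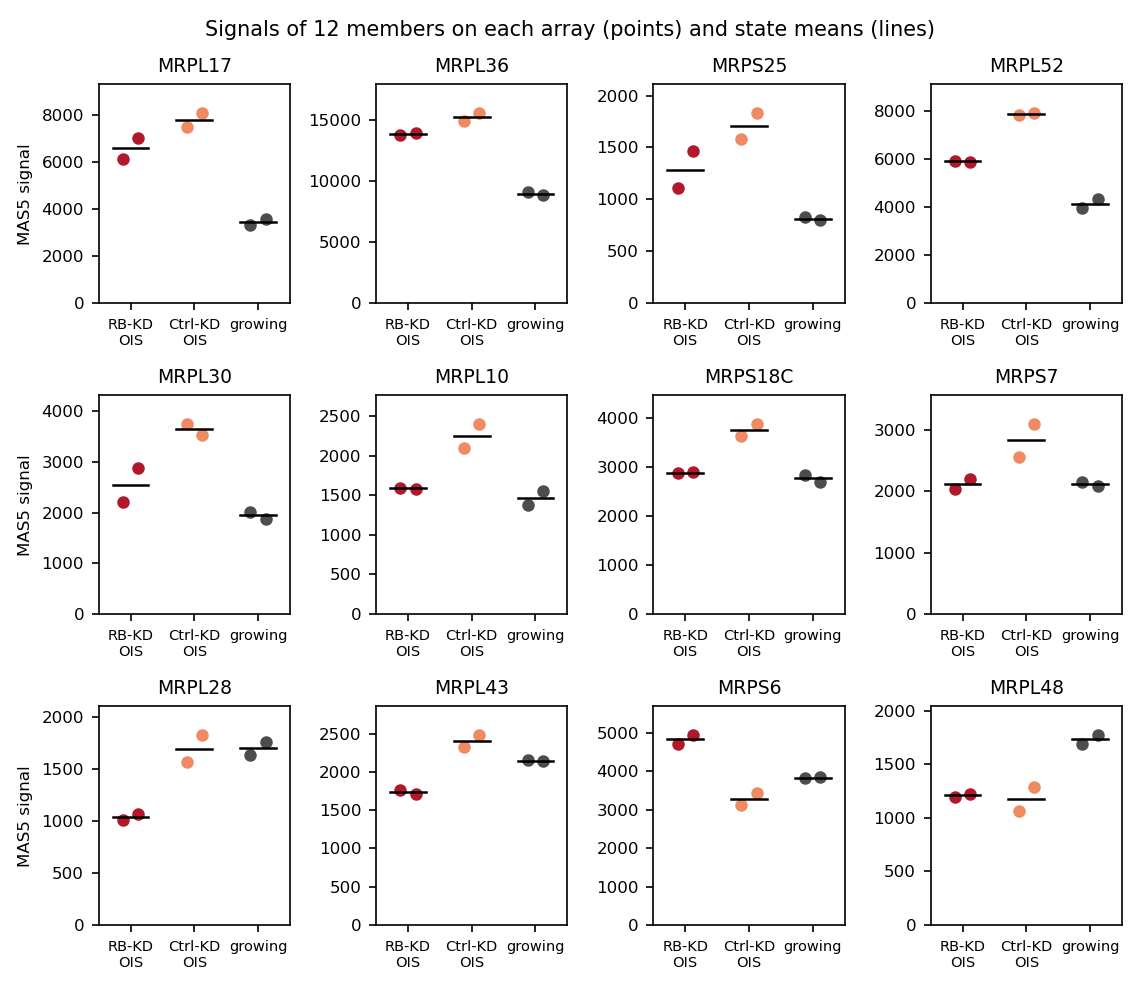
MAS5 signals of 12 members, with 1 point per array and a line at each state's mean, for RB-KD OIS, Ctrl-KD OIS and growing cells. The top row, with MRPL30, shows members highest in Ctrl-KD OIS cells and above growing cells in both senescent states, MRPL10, MRPS18C and MRPS7 show RB-KD OIS values near growing ones, and MRPL28 (1005 and 1068 in RB-KD OIS cells) and MRPS6 (4709 and 4941) show RB-KD OIS values on 1 side of both other states.

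Read side by side, the members took several courses over the 3 states, in comparisons that share arrays. For MRPL36 the 3 log2 fold changes were 0.77 for Ctrl-KD OIS relative to growth, 0.63 for RB-KD OIS relative to growth and -0.14 for RB-KD OIS relative to Ctrl-KD OIS. In the same order MRPL57 had 0.49, 0.51 and 0.023, and MRPS28 had 0.28, 0.29 and 0.013. For none of these 3 did the senescent states differ by the test (adjusted p = 0.222, 0.859 and 0.932). MRPL35 had 0.47, 0.017 and -0.46, and MRPS17 had 0.33, 0.036 and -0.29. Here the RB-KD OIS values passed no test against growing cells (adjusted p = 0.94 and 0.789). MRPL23 ran the other way, with -0.47, -0.12 and 0.35. The course of MRPL35 was read on its brightest probe set. Its next set had -0.0076, -0.12 and -0.11, and its dimmest -0.047, -0.13 and -0.087, all without a call. For 24 members no comparison passed the test on the brightest probe set, among them MRPL13 (0.11, -0.057 and -0.17), MRPL33 (0.16, 0.16 and 0.003) and MRPS10 (0.12, 0.071 and -0.052). The share of all genes without a call in any comparison is not given here. In a fit over probe sets, a dimmer MRPS10 set was lower for RB-KD OIS relative to Ctrl-KD OIS (-0.43, adjusted p = 0.0177). Another had -0.29 without a call. Dimmer sets of MRPS22, also among the 24, were higher for Ctrl-KD OIS relative to growth (0.44, 0.56 and 0.36).

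By place in the ribosome, the stalk protein MRPL10 changed as given above. Its partner MRPL12, which recruits translation factors, had signals of 2598 and 2086 in RB-KD OIS cells, 2708 and 2766 in Ctrl-KD OIS cells and 2047 and 2603 in growing cells and passed the test in no comparison (adjusted p = 0.196 for Ctrl-KD OIS relative to growth and 0.27 for RB-KD OIS relative to Ctrl-KD OIS). Replicates of MRPL12 lay further apart in RB-KD OIS and in growing cells than in Ctrl-KD OIS cells. A dimmer set of MRPL12 had low signals, 20.6 and 45.2 in RB-KD OIS, 94.6 and 77.5 in Ctrl-KD OIS and 22.7 and 16.2 in growing cells. In a fit over probe sets it was higher for Ctrl-KD OIS relative to growth (2.16, adjusted p = 0.04). MRPL45, which ties the ribosome to the inner membrane where new OXPHOS subunits are inserted, had signals of 1117.5 and 1226 in RB-KD OIS cells, 1271 and 1443.5 in Ctrl-KD OIS cells and 1122 and 947 in growing cells and was higher in Ctrl-KD OIS relative to growth (0.39 ± 0.13, adjusted p = 0.033). That call was lost without growing replicate 2 or Ctrl-KD OIS replicate 2. Of the 3 homologues of bacterial S18, MRPS18C rose in Ctrl-KD OIS cells by 0.44 ± 0.086, MRPS18A had 0.22 ± 0.12 and MRPS18B -0.12 ± 0.11, the last 2 without a call. MRPL44, which has a fold like ribonuclease III, was higher in both senescent states (0.58 ± 0.10 in Ctrl-KD OIS and 0.41 ± 0.10 for RB-KD OIS relative to growth). MRPL58, which frees peptides from stalled ribosomes, had -0.051 ± 0.13 and -0.12 ± 0.13 in the same comparisons, with no call.

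Members with bacterial names and members added in mitochondria both held calls, and the difference between them was not tested. Of all genes tested, 20.5% were higher in Ctrl-KD OIS relative to growth. For Ctrl-KD OIS relative to growth, 15 of 28 large subunit members numbered up to 36 were higher (median 0.35) and 8 of 20 numbered above 36 (median 0.25). In the small subunit 8 of 16 numbered up to 21 and 6 of 11 numbered above 21 were higher, with medians of 0.28 in both groups. For RB-KD OIS relative to Ctrl-KD OIS, 7 of 28 (25%) and 2 of 20 (10%) large subunit members were lower. In the small subunit these were 4 of 16 (25%) and 1 of 11 (9.09%), against 11.6% of all genes. Counting MRPS18A and MRPS30 with the large subunit gave 24 of 50 and 13 of 25 higher in Ctrl-KD OIS relative to growth.

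Promoters of the members were read from RefSeq (GRCh38.p14), as 300 bases from 250 before to 50 after each gene's start, and 67 of the 75 members had an entry. The 6 shown were picked, with their values known, as examples of different courses: MRPL17, MRPL36 and MRPS25 (higher in both senescent states), MRPS18C (lower in RB-KD OIS than in Ctrl-KD OIS cells), MRPL28 (lowest in RB-KD OIS cells) and MRPS6 (highest in RB-KD OIS cells). Capitals mark matches, on either strand, to any of the motifs searched.
MRPL17 promoter (chr11:6683291-6683590, minus strand): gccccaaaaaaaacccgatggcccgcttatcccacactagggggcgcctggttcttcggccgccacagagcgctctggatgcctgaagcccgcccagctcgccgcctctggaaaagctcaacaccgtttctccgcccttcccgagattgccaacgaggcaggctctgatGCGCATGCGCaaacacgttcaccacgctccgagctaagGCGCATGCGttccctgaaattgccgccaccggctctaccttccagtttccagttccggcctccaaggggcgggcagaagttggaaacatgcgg
MRPL36 promoter (chr5:1799788-1800087, minus strand): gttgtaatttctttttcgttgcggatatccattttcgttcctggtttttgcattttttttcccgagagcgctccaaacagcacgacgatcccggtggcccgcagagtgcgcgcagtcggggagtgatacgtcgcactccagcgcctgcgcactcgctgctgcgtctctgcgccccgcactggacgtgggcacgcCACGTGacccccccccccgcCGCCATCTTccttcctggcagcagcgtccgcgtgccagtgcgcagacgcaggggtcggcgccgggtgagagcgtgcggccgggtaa
MRPS25 promoter (chr3:15065266-15065565, minus strand): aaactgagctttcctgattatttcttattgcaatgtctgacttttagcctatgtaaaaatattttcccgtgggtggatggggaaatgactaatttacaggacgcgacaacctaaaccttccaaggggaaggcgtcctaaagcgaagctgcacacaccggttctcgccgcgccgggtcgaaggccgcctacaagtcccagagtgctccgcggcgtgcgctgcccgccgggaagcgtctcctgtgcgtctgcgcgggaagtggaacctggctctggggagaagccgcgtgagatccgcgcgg
MRPS18C promoter (chr4:83455808-83456107, plus strand): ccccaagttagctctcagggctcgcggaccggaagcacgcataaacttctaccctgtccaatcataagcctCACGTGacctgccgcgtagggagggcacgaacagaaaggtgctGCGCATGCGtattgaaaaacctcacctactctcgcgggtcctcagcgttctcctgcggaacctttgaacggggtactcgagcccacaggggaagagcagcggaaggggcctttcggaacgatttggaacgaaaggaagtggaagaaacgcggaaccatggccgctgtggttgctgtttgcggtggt
MRPL28 promoter (chr16:370489-370788, minus strand): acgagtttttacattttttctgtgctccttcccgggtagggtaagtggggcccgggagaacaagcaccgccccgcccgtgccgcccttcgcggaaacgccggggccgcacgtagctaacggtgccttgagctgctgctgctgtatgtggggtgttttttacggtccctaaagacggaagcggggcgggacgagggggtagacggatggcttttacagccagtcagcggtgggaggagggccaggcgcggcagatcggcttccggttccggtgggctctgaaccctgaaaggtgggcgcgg
MRPS6 promoter (chr21:34073328-34073627, plus strand): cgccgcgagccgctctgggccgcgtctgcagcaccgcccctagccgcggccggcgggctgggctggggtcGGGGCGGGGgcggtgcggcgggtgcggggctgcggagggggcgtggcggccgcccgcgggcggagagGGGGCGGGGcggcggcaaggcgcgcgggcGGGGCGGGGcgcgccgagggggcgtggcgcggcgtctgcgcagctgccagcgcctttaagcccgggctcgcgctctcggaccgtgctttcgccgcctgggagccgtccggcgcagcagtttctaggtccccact
The MRPL17 window holds the NRF1 motif GCGCATGCG at 2 places, at the first of which it reads on both strands with the matches overlapping. The MRPL36 window holds a YY1 motif and an E-box, the MRPS18C window an NRF1 motif and an E-box, and the MRPS6 window 3 SP1 motifs. None of the 8 motifs occurs in the MRPS25 and MRPL28 windows.

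Over all members with an entry, the motif of YY1 (AAGATGGCG) stood in 12 of 67 promoters (17.9%), where 2.74% of 15843 protein-coding promoters of the same length hold it. The ETS motif bound by GABPA (CCGGAAGT) stood in 10 (14.9%, against 6.19%) and the NRF1 motif in 3 (4.48%, against 2.76%). NRF1, GABPA and YY1 are known regulators of nuclear genes for mitochondrial proteins. At least 1 of these motifs stood in 32.8% of members and 10.9% of all promoters. The E2F motifs TTTCCCGC and TTTGGCGC, of the factors that RB binds, stood in 3 members (4.48%, against 3.06%). The E-box CACGTG stood in 6 (8.96%, against 8.88%), the SP1 motif GGGGCGGGG in 16 (23.9%, against 22.4%) and the CREB motif TGACGTCA in none, against 2.59%. Among the 12 members with an entry that were lower in RB-KD OIS than in Ctrl-KD OIS cells, 1 held an E2F motif and 4 held an NRF1, ETS or YY1 motif. Among the other 55, these numbers were 2 and 18. A match gives letters in a window and does not show that a factor binds there.

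Many members lie head to head with another gene. Of the 67 members, 20 (29.9%) had the start of another protein-coding gene within 1000 bases upstream on the opposite strand, against 11.3% of all protein-coding promoters. MRPL46 and MRPS11 share such a region with 318 bases between their starts. MRPS11 was higher in both senescent states as given above, and MRPL46 had 0.36 ± 0.13 in Ctrl-KD OIS cells and 0.55 ± 0.13, adjusted p = 0.00917 in RB-KD OIS cells, each against growing cells. MRPS12 faces SARS2, the mitochondrial seryl-tRNA synthetase, at 179 bases. SARS2 had -0.15 in Ctrl-KD OIS and -0.11 in RB-KD OIS cells against growing cells and passed neither test.

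Where a member had several probe sets, they did not always give the same course. Of 31 members with at least 2 tested probe sets, all sets had the same sign for 14 for Ctrl-KD OIS relative to growth, for 14 for RB-KD OIS relative to growth and for 25 for RB-KD OIS relative to Ctrl-KD OIS. In a fit over 30139 probe sets, in which 34.1%, 30.5% and 16.9% were called in these 3 comparisons, calls in opposite directions occurred for MRPS16, MRPL42 and MRPS30. For MRPS16 the brightest set had 0.35 and a dimmer one -0.45 for Ctrl-KD OIS relative to growth. For MRPL42 the brightest had 0.50, the next 0.29 and the dimmest -0.69 for RB-KD OIS relative to growth. For MRPS30 the values there were 0.33 in the brightest, -0.61 and -0.55. For RB-KD OIS relative to Ctrl-KD OIS no member had opposite calls.

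For several members the 2 brightest sets gave like values for Ctrl-KD OIS relative to growth, all with a call. MRPL50 had 0.78 and 0.88 on these, MRPL44 had 0.58 and 0.67, and MRPL30 had 0.91 and 0.83. The dimmer sets of MRPL30 had 0.34 and 0.22 without a call and 0.96 with one, and that of MRPL50 had 0.69 without one. MRPS12 had 1.58 and 1.40 on its next 2 sets, against 0.57 on its brightest, and 0.40 with no call on its dimmest. MRPL4 had -0.23 on its brightest set and -0.82 and -0.88 on 2 others for RB-KD OIS relative to Ctrl-KD OIS, the last 2 with a call. For MRPS25 the rise rested on the brightest set (1.06), with 0.47 and -0.012 on the others. For RB-KD OIS relative to Ctrl-KD OIS MRPL43 had -0.47 on its brightest set. Its other sets had -0.30 and -0.036 without a call. MRPL28 and MRPL17 have 1 probe set each.

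**Figure D4:**
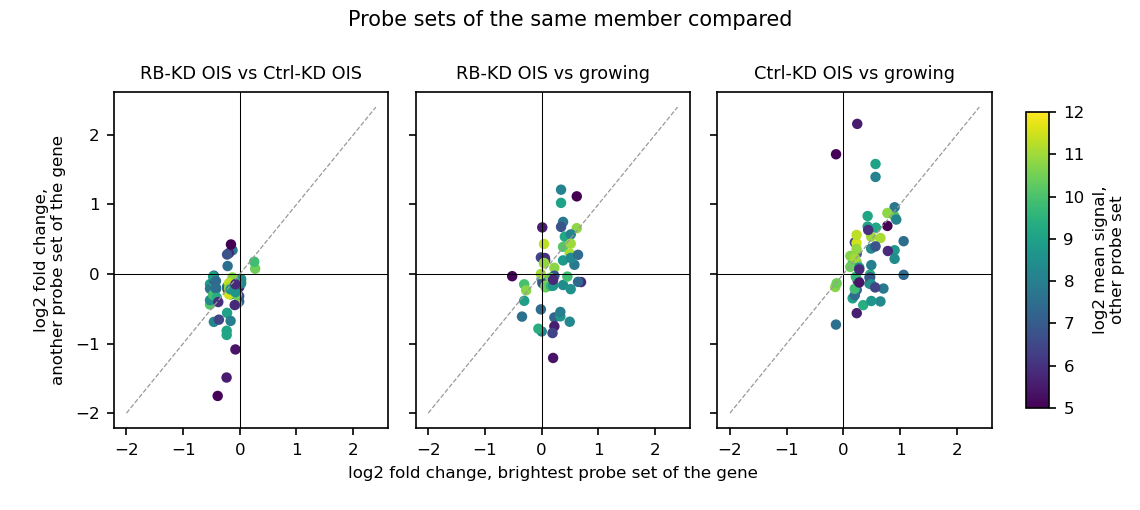
Each of 56 points is a further probe set of 1 of 31 members, with its log2 fold change against that of the member's brightest set, in RB-KD OIS against Ctrl-KD OIS, RB-KD OIS against growing and Ctrl-KD OIS against growing cells. Colour gives the mean log2 signal of the further set, and the dashed line equal values. Points left or right of 0 that lie on the other side of the horizontal line belong to members with sets of both signs, 6 of 31 in the left panel and 17 of 31 in each of the other panels.

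MRPS24 was read with the readthrough gene URGCP-MRPS24, whose shared probe set had 0.32 in Ctrl-KD OIS and 0.48 in RB-KD OIS cells against growing cells. MRPL53 shared its probe set with CCDC142, with 0.081 and -0.22. For RB-KD OIS relative to Ctrl-KD OIS this set had -0.30, adjusted p = 0.0372 in the fit over probe sets. The set of MRPS24 had 0.16 there without a call. None of these values can be given to the ribosomal gene alone. MRPL45P2 was under the array median on all arrays and MRPL20-AS1 passed no test.

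Other genes of mitochondrial gene expression were read for comparison, from lists chosen by function. Of all genes tested, 20.5% were higher and 21.2% lower in Ctrl-KD OIS relative to growth. For RB-KD OIS relative to Ctrl-KD OIS, 12.6% were higher and 11.6% lower. Among 24 genes of mitochondrial DNA transcription, replication and RNA processing, 15 were higher and 1 lower in Ctrl-KD OIS relative to growth, and 7 were lower and none higher in RB-KD OIS than in Ctrl-KD OIS cells. TRMT10C, a subunit of the enzyme that cuts transfer RNAs out of mitochondrial transcripts, rose by 1.12 ± 0.091 in the Ctrl-KD state and by 1.04 ± 0.091 in RB-KD OIS cells, each against growing cells. PPARGC1B, a coactivator of mitochondrial genes, rose by 2.44 ± 0.44 and 2.56 ± 0.44. POLRMT, the mitochondrial RNA polymerase, had 0.92 ± 0.15 for Ctrl-KD OIS relative to growth and -0.64 ± 0.15, adjusted p = 0.0155 for RB-KD OIS relative to Ctrl-KD OIS. TEFM, its elongation factor, had -0.65 ± 0.099, adjusted p = 0.00181 between the same senescent states.

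Of 16 translation factors, 8 were higher and 2 lower in Ctrl-KD OIS relative to growth, and 6 were lower and 1 higher in RB-KD OIS than in Ctrl-KD OIS cells. LRPPRC, which stabilizes mitochondrial messenger RNAs, rose by 0.77 ± 0.085 in Ctrl-KD OIS and by 0.78 ± 0.085 in RB-KD OIS cells against growing cells. MTFMT, which formylates the initiator methionine, rose by 0.88 ± 0.11 in Ctrl-KD OIS cells. LETM1 had -0.97 ± 0.17 and MTRFR, a rescue factor for stalled ribosomes, 0.89 ± 0.15 for RB-KD OIS relative to Ctrl-KD OIS. Of 4 ribosomal proteins with other names, DAP3 passed the test, with 0.46 ± 0.11, adjusted p = 0.0068 for Ctrl-KD OIS relative to growth and -0.43 ± 0.11, adjusted p = 0.0174 for RB-KD OIS relative to Ctrl-KD OIS.

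Of 29 assembly factors and ribosomal RNA modifiers, 7 were higher and 2 lower in Ctrl-KD OIS relative to growth, TRUB2 with 0.74 ± 0.13 and METTL15 with -0.76 ± 0.16. For RB-KD OIS relative to Ctrl-KD OIS, 3 (10.3%) were lower and 3 (10.3%) higher, against 11.6% and 12.6% of all genes. Among them were MTG1 (-0.65 ± 0.14), a GTPase of large subunit assembly, and METTL17 (0.67 ± 0.12), a factor of small subunit assembly. Of 20 mitochondrial tRNA synthetases and partners, 4 (20%) were higher and 2 (10%) lower in Ctrl-KD OIS relative to growth. The largest rise was that of MARS2 (1.93 ± 0.18). In RB-KD OIS relative to growth, 2 (10%) were higher and 7 (35%) lower, against 18.5% and 19% of all genes. For RB-KD OIS relative to Ctrl-KD OIS 5 were lower and none higher, LARS2 with -0.56 ± 0.12 and HARS2 with -0.56 ± 0.12.

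The nuclear-encoded OXPHOS subunits, the partners of what the mitochondrial ribosome makes, had 24 of 72 higher and 2 lower in Ctrl-KD OIS relative to growth (median 0.14). For RB-KD OIS relative to Ctrl-KD OIS 17 were lower and 3 higher (median -0.088). COX7A2L had 0.77 and NDUFV2 of complex I 0.70 ± 0.078 for Ctrl-KD OIS relative to growth. COX7A1 had -0.93 and NDUFB7 of complex I -0.72 ± 0.16 for RB-KD OIS relative to Ctrl-KD OIS. The cytosolic ribosomal proteins showed few calls. Of 58, 5 were higher and 1, RPL39L (-1.83), lower in Ctrl-KD OIS relative to growth (median 0.071). None was higher and 2, RPL22L1 (-0.46) and RPL36 (-0.39), were lower in RB-KD OIS than in Ctrl-KD OIS cells (median 0.054).

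**Figure D5:**
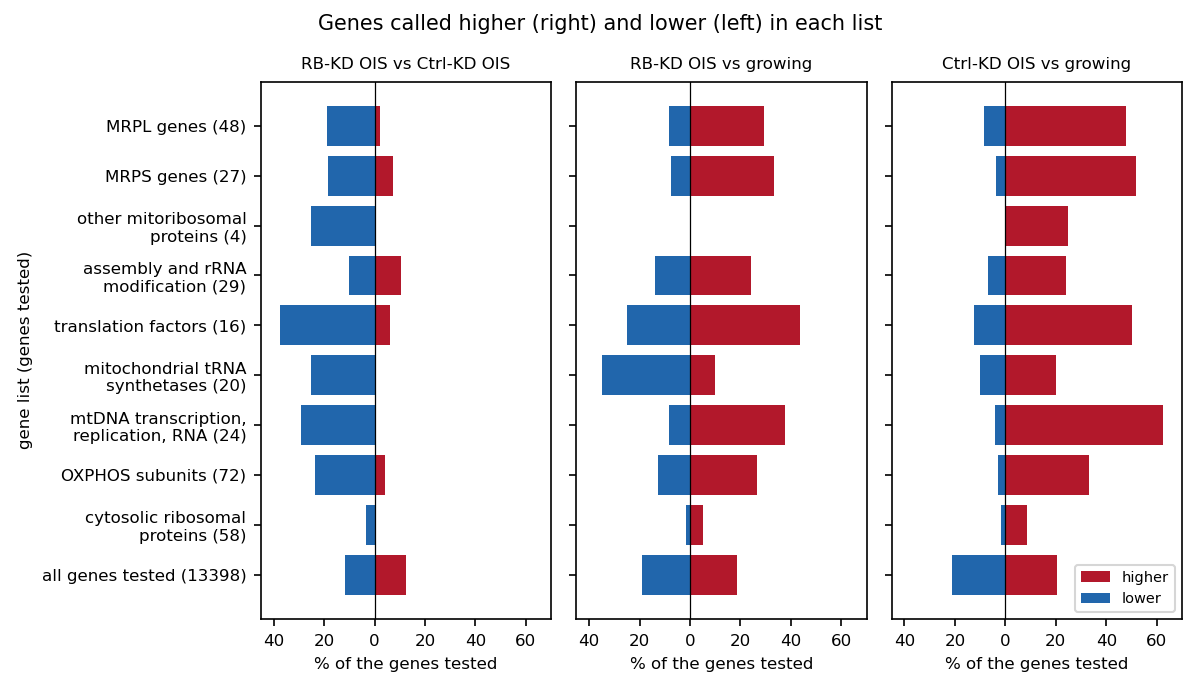
Bars give the percentage of the tested genes of each list that were called higher (right) and lower (left) in RB-KD OIS against Ctrl-KD OIS, RB-KD OIS against growing and Ctrl-KD OIS against growing cells. In the right panel 47.9% of MRPL and 51.9% of MRPS genes were higher, against 8.62% of cytosolic ribosomal protein genes and 20.5% of all genes.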

How the data were processed

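Expression was measured in 6 IMR90 samples, 2 biological replicates of each state, and samples were grouped by their labels. Biotin-labelled RNA was hybridized to U133 Plus 2.0 arrays, and the authors took MAS5 signals from Affymetrix Expression Console (versions not given in the sources used here). The deposited intensities are these linear MAS5 signals, scaled by the authors and without detection calls. Log2 signals were used without an offset. Each gene was read from the brightest of the probe sets that name no other gene in a platform annotation of 2016. Of 54613 probe sets, 41091 name 1 gene, 1801 several and 11721 none. Genes that exceeded the median of an array on 2 or more of the 6 arrays entered the test with limma 3.58.1 in R 4.3.3, with a mean per state over all 6 arrays, a trend in the prior variance, and Benjamini-Hochberg adjustment over all genes at 0.05. The number of arrays limits the precision: an exact permutation test of 2 against 2 cannot go below 0.333.

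The members, gene lists and motifs were chosen with earlier results of these data known. Named members are, for each comparison and subunit, up to 5 called rises and 5 called falls with the largest change and no overlap between arrays, together with members of known role, members whose probe sets disagree and the context genes with the largest called change. A few others are named as examples and were chosen after their values were seen. The alternatives tried were median centring, quantile normalization, an offset of 16, a filter at percentile 70 or none, other choices of probe set, no trend, only the 2 states compared, the replicate number as a block, and each array left out once. Promoters were searched on both strands with Python 3.11.15.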

Additional observations from a re-analysis of the deposited data

How the results depend on the processing

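Directions of the member medians held in all 3 comparisons under every alternative run, while counts of calls moved. Median centring shifted the median of all genes by about 0.1 against growing cells, to 0.084 in Ctrl-KD OIS and 0.095 in RB-KD OIS cells. It gave 2 lower members and medians of 0.39 (large) and 0.37 (small) for Ctrl-KD OIS relative to growth, and 3 lower and medians of 0.22 and 0.29 for RB-KD OIS relative to growth. With it 3219 genes were higher and 2367 lower in Ctrl-KD OIS relative to growth, and 3097 higher and 1984 lower in RB-KD OIS relative to growth. The mean of all probe sets gave 24 higher, 3 lower and a large subunit median of 0.15 for Ctrl-KD OIS relative to growth, 13 higher and a small subunit median of 0.039 for RB-KD OIS relative to growth, and 1 higher and 5 lower for RB-KD OIS relative to Ctrl-KD OIS. Over all genes that comparison then had 874 higher and 775 lower. Of all genes, 14.5% were then higher and 15.5% lower for Ctrl-KD OIS relative to growth, and 12.2% higher for RB-KD OIS relative to growth. Taking probe sets whose names do not end in _s_at or _x_at first gave a large subunit median of 0.16 for Ctrl-KD OIS relative to growth. It gave 1 higher member (1.39%, against 11.7% of all genes) for RB-KD OIS relative to Ctrl-KD OIS. With no trend in the prior variance the counts were 21 higher and 1 lower for Ctrl-KD OIS relative to growth, against 16% and 17.8% of all genes. They were 11 and 3 for RB-KD OIS relative to growth, against 14.3% and 15.2%. For RB-KD OIS relative to Ctrl-KD OIS they were 1 and 2, where all genes gave 940 higher and 641 lower. In this last comparison no filter gave 1 higher (1.33%, against 7.62% of all genes). Fitting only the 2 states compared gave 1 higher (1.33%, against 10.7%) and 9 lower (12%, against 9.17%).

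Leaving out 1 array gave 20 to 38 higher and 1 to 7 lower members for Ctrl-KD OIS relative to growth, with medians of 0.24 to 0.33 (large) and 0.25 to 0.35 (small). It gave 11 to 27 higher and 1 to 8 lower for RB-KD OIS relative to growth, with medians of 0.061 to 0.21 and 0.11 to 0.21. It gave 1 to 4 higher and 4 to 13 lower for RB-KD OIS relative to Ctrl-KD OIS, with medians of -0.20 to -0.095 and -0.26 to -0.034. Where an arm then held 1 array, that array was assumed to vary like the others.

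Replicate numbers were not taken to pair samples, since the labels do not state a pairing. The paper reports RNA from independent experiments, which leaves a pairing by experiment possible. Deviations of same-numbered arrays correlated at -0.0038, 0.010 and 0.035. With a single difference per state, these values cannot show whether cultures were paired. With the replicate block, 41 members (54.7%) were higher and 5 (6.67%) lower for Ctrl-KD OIS relative to growth, against 20.9% and 21.6% of all genes. For RB-KD OIS relative to growth these were 26 (34.7%) and 7 (9.33%), against 19.1% and 19.6%. For RB-KD OIS relative to Ctrl-KD OIS they were 3 (4%) and 15 (20%), against 13.7% and 12.8%.

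Of the 61 called values of named members, other settings were tried 608 times with all arrays: 516 values kept their call, 86 lost it and 6 reversed. With the mean of all probe sets MRPS16 was -0.048 for Ctrl-KD OIS relative to growth, MRPS27 was -0.53, MRPS30 -0.27 and MRPS31 -0.070 for RB-KD OIS relative to growth, and MRPS27 was -0.64 for RB-KD OIS relative to Ctrl-KD OIS. With the other choice of probe set MRPS16 was -0.45 for Ctrl-KD OIS relative to growth. Without 1 array, 259 of 366 values kept their call and 107 lost it. Beyond these constructions, the cause of each move was not tested.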
